A study of Mus musculus with 58 samples.

Results

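The Dlk1-Dio3 locus was followed in 29 liver tumors and 29 normal liver samples through 37 genes, taken from a list of the locus by gene symbol and set in chromosome order. All 37 had a probe set of their own among the 22180 genes that could be tested. They were the protein genes Dlk1 and Dio3, the noncoding RNA genes Meg3, Rian and Dio3os, and 32 miRNA genes. All 58 arrays came from adult mice of a mixed FVB/NJ, C57BL/6 and 129/Sv background whose livers had been exposed to adeno-associated virus (AAV), a gene therapy vector, shortly after birth. The normal samples therefore carried the vector too, no group without vector was used here, and the sources used here do not give the vector that each mouse received. The series asked whether insertion of the vector into the genome contributed to hepatocellular carcinoma, and the insertion sites were not analysed here. The arrays came from 39 animals by the titles, of which 18 gave both tissues and 1 gave 2 tumors, tumor 22 and tumor 26. Of the tumors 17 were labelled male, 11 female and 1 carried no gender label, and of the normal samples 20 were labelled male and 9 female. Some titles carry +/- or -/- with no gene named, 10 of the tumors among them. Samples are numbered within each tissue and the number is only a name. The title of normal sample 4 also carries the letters GFP, and that of tumor 4, from the same animal, does not. Whether these letters name a vector is not stated.

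The locus is imprinted, meaning that the copies inherited from mother and father behave differently. In most tissues Dlk1, a membrane protein that resembles a Notch ligand, and Dio3, an enzyme that inactivates thyroid hormone, are read from the paternal copy. The noncoding RNAs and the miRNAs are read from the maternal copy in a long stretch that begins at Meg3, passes through Rian, the host of many small nucleolar RNAs, and ends in a dense cluster of miRNA hairpins. The locus is active in the fetus and in a few adult tissues such as adrenal gland and muscle, and adult liver shows little of it.

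A value here is the log2 signal that the depositors gave for a probe set, and a difference of 1 is a doubling of signal. The value of a probe set named for a miRNA gene is the signal of that gene's probes, and it does not tell a long precursor from the mature miRNA. Levels of different genes were not set against each other as amounts of RNA, since each depends on its own probes. In a bulk sample fewer cells of a type and less RNA per cell cannot be told apart.

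The sequences below are shown because the raised stretch differed between tumors in which of these hairpins it took in, and because a few of its miRNAs share a seed. Capitals mark the seed, bases 2 to 8 counted from the 5′ end, which pairs with target messages. All sequences and positions are from RefSeq on GRCm38.p6, plus strand, and all 32 miRNA genes were matched by name, with 61 mature arms. The hairpins of Mir341 (chr12:109611500-109611595) and Mir1188 (chr12:109611822-109611941) lie 7.55 and 7.88 kb after the start of Rian, and that of Mir370 (chr12:109618258-109618336) lies 14.3 kb after it, all within Rian. Mir882 follows at 78.3 kb, and the hairpin cluster runs from Mir379 (chr12:109709060-109709125, 105 kb) to Mir409 (chr12:109743158-109743236, 139 kb).
miR-341-5p: cGGUCGGCcgaucgcucgguc
miR-1188-5p: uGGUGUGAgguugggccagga
miR-370-5p: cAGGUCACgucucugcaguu
miR-1193-3p: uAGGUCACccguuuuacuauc
miR-379-5p: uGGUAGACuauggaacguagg
miR-1193-5p: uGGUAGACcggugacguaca
miR-379-3p: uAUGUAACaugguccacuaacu
miR-411-3p: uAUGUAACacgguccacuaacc
miR-376a-3p: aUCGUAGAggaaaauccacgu
miR-376b-3p: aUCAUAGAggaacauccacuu
miR-453: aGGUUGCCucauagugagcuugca
miR-377-3p: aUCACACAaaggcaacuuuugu
miR-409-3p: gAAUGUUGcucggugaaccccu
The 61 arms held 58 different seeds, and 3 seeds were shared by 2 arms each. miR-370-5p and miR-1193-3p share AGGUCAC, miR-379-5p and miR-1193-5p share GGUAGAC, and miR-379-3p and miR-411-3p share AUGUAAC. The other seeds occurred once each among the members.

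Rian was the first gene of the stretch that rose in the tumors, and Meg3, at the head of the maternal transcripts, did not pass the test, so the stretches around both start sites are shown as well. Each runs from 250 bases before to 50 after a start that RefSeq gives. For Meg3 the table holds 2 starts, and the first along the chromosome is shown. In the Meg3 window (chr12:109540746-109541045) capitals mark a cyclic AMP response element, TGACGTCA, and the letters TATAAA found on both strands and overlapping there. The Rian window (chr12:109603695-109603994) holds neither, in these letters on both strands.
Meg3 start: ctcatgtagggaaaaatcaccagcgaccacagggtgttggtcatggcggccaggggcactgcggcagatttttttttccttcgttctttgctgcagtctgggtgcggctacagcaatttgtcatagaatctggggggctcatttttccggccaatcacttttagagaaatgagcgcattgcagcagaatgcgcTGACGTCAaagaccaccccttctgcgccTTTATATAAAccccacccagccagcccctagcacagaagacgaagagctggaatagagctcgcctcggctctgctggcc
Rian start: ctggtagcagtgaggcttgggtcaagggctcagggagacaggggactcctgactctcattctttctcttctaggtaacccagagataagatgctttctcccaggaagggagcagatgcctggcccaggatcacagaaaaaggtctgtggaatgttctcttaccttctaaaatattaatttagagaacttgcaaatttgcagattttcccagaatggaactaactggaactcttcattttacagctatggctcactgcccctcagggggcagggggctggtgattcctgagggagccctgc
TGACGTCA occurred in 1.79% of the 32851 windows of this length in the RefSeq table and TATAAA in 13.6%. The Meg3 window shown held 13 CG pairs and the Rian window 0. The window at the other Meg3 start (chr12:109545148-109545447) held neither set of letters and 1 CG pair. A match in letters is a description of the window only.

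The arrays were of even scale, with medians between 6.72 and 7.15, and no array repeated another. Correlations between arrays ran from 0.835 to 0.987, and tumor 9 had the lowest mean correlation with the rest, 0.873. In 7 arrays, 3 normal and 4 tumor, Xist and Y-linked levels went against the gender label. These 7 are normal samples 3, 14 and 15 and tumors 3, 14, 15 and 28, so animals 3, 14 and 15 were affected in both tissues and tumors 14, 15 and 28 bear on the results below. The label liver was borne out by the hepatocyte markers in normal tissue, where the summed log2 value of the 7 measured ones ranged from 82.49 to 88.01. In tumors it ranged from 55.61 to 87.25, with 3 of the 7 lower and 0 higher.

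Across all 58 arrays, 23 of the 37 members rose in tumors, 1 fell and 13 did not pass the test (limma with the animal as a random block, adjusted p under 0.05 over all 22180 genes). Of all genes 17.9% rose and 14.3% fell by the same test. All 23 that rose lie in the stretch of 29 members from Rian to Mir409. The 6 members before Rian gave no call and neither did Dio3, and the 1 that fell was Dio3os. The median log2 change over the 37 members was 0.43, against -0.02 over all genes. In the arrays of the animals without a pair alone, 11 tumors and 11 normal samples, 0 members were called, and Rian was 0.88 higher with an adjusted p of 0.445. Without the 7 arrays whose sex markers go against their labels, 17 members rose.

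Rian, the host transcript of small nucleolar RNAs, had the largest change. Its log2 value in normal liver ranged from 5.88 to 8.83 with a median of 6.84, and in tumors from 6.18 to 12.20 with a median of 8.20. The tumors covered the whole normal range and went on above it, where 14 of them lay. Normal samples averaged 7.03 ± 0.92 and tumors 8.97 ± 2.28 (SD, n = 29 each), a log2 change of 2.02 (SE 0.42) or 4.06-fold, with a limma adjusted p of 0.000119. The SD was 2.49 times as large in tumors as in normal liver.

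Several miRNA genes of the cluster after Mir379 changed nearly as much. Mir380 ranged from 3.82 to 6.53 in normal liver (median 4.22) and from 3.91 to 10.20 in tumors (median 5.27), a limma log2 change of 1.80 (SE 0.40, adjusted p = 0.000342). Mir453 ranged from 5.35 to 7.60 in normal liver (median 5.90) and from 5.38 to 10.91 in tumors (median 6.65), a limma change of 1.72 (SE 0.35, adjusted p = 9.99e-05). Mir377 ranged from 4.69 to 6.07 in normal liver (median 4.88) and from 4.60 to 9.93 in tumors (median 5.06), a limma change of 1.40 (SE 0.32, adjusted p = 0.000422). In each of these genes the groups overlapped in the lower range, the tumor median lay within the normal range, and the change came from a part of the tumors. Mir323, beside Mir380, rose by 1.70, and the neighbours Mir376b and Mir376a rose by 1.27 and 0.98. Mir376a and Mir376b are close copies of one another in sequence, as the arms shown above are, so signal shared between their probe sets cannot be told apart.

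Mir379, at the head of the cluster, and Mir376a were raised above every normal sample in 14 tumors each, more than any other miRNA member. Mir379 ranged from 3.44 to 3.86 in normal liver (median 3.55) and from 3.47 to 7.25 in tumors (median 3.84), a limma change of 0.93 (SE 0.22, adjusted p = 0.000589). Mir376a ranged from 3.14 to 3.56 in normal liver (median 3.34) and from 3.24 to 8.02 in tumors (median 3.55), a limma change of 0.98 (SE 0.27, adjusted p = 0.00292). Mir668, raised in 13 tumors, ranged from 5.95 to 6.97 in normal liver (median 6.30) and from 5.95 to 9.97 in tumors (median 6.72), with a limma change of 0.90 (SE 0.23, adjusted p = 0.00143). The normal samples lay close together for Mir379 and Mir376a, so a small difference already took a tumor out of their range. Mir376a has another probe set, with a normal median of 3.41, above the 3.34 of the one used. That probe set reached only 3.72 in tumors and was raised in 3 of them. The one used was the brighter over normal and tumor arrays together, so the tumor values bore on the choice and on the count of 14.

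The members inside Rian changed less evenly. Mir341 ranged from 8.16 to 9.18 in normal liver (median 8.73) and from 8.22 to 10.78 in tumors (median 8.70), and its change of 0.17 (SE 0.12) did not pass the test (limma adjusted p = 0.254). Only tumors 8, 11, 21 and 23 lay above the normal range for it. Mir1188 ranged from 6.20 to 7.32 in normal liver (median 7.05) and from 6.41 to 11.79 in tumors (median 7.24), a limma change of 0.63 (SE 0.22, adjusted p = 0.0216), with 12 tumors above the range. Mir370 ranged from 4.71 to 6.70 in normal liver (median 5.70) and from 4.72 to 10.96 in tumors (median 5.86), a limma change of 0.65 (SE 0.24, adjusted p = 0.0314), with 9 tumors above. The call of Mir370 was lost in a fit of the 18 pairs that held each animal as a fixed replicate block, where the limma change was 0.88 (adjusted p = 0.0842), without a block (0.62, adjusted p = 0.0528) and without the 7 arrays that go against their labels (0.55, adjusted p = 0.103).

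At the far end of the cluster Mir541 rose by 0.87 (SE 0.22, limma adjusted p = 0.00141), from 4.51 to 5.90 in normal liver (median 5.05) against 4.70 to 8.66 in tumors (median 5.33). Mir409, the last member before Dio3, ranged from 5.41 to 6.40 in normal liver (median 5.89) and from 5.29 to 8.98 in tumors (median 5.97), a limma change of 0.55 (SE 0.19, adjusted p = 0.0221). Its tumors also reached below the normal range, in tumors 3, 9 and 22. The call of Mir409 was lost in the same blocked fit of pairs (0.74, limma adjusted p = 0.0652) and without the arrays that go against their labels (0.48, adjusted p = 0.0581).

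Of the other stretch members, Mir1193, Mir544, Mir543 and Mir679 rose by 0.91, 0.90, 0.63 and 0.58 and were each raised in 11 or 12 tumors. Mir411, Mir381, Mir882, Mir495, Mir494 and Mir539 rose by 0.46, 0.43, 0.41, 0.35, 0.33 and 0.19, and were raised in 7 to 11 tumors each. The calls of Mir494, Mir679, Mir381 and Mir539 were lost without the 7 arrays that go against their labels, with limma adjusted p of 0.0788, 0.0714, 0.114 and 0.115. The remaining 5 members of the stretch, besides Mir341, did not pass the test. Mir758, Mir329 and Mir667 had log2 changes of 0.20, 0.18 and 0.00 and exceeded the normal range in 5 tumors each, by at most 0.73, 0.57 and 0.48. Mir299a and Mir666 had changes of -0.01 and -0.03. Mir299a exceeded the range in tumor 4 alone, by 0.05, and Mir666 in none of the 29 tumors, although both lie between members that were raised in many.

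**Figure D1:**
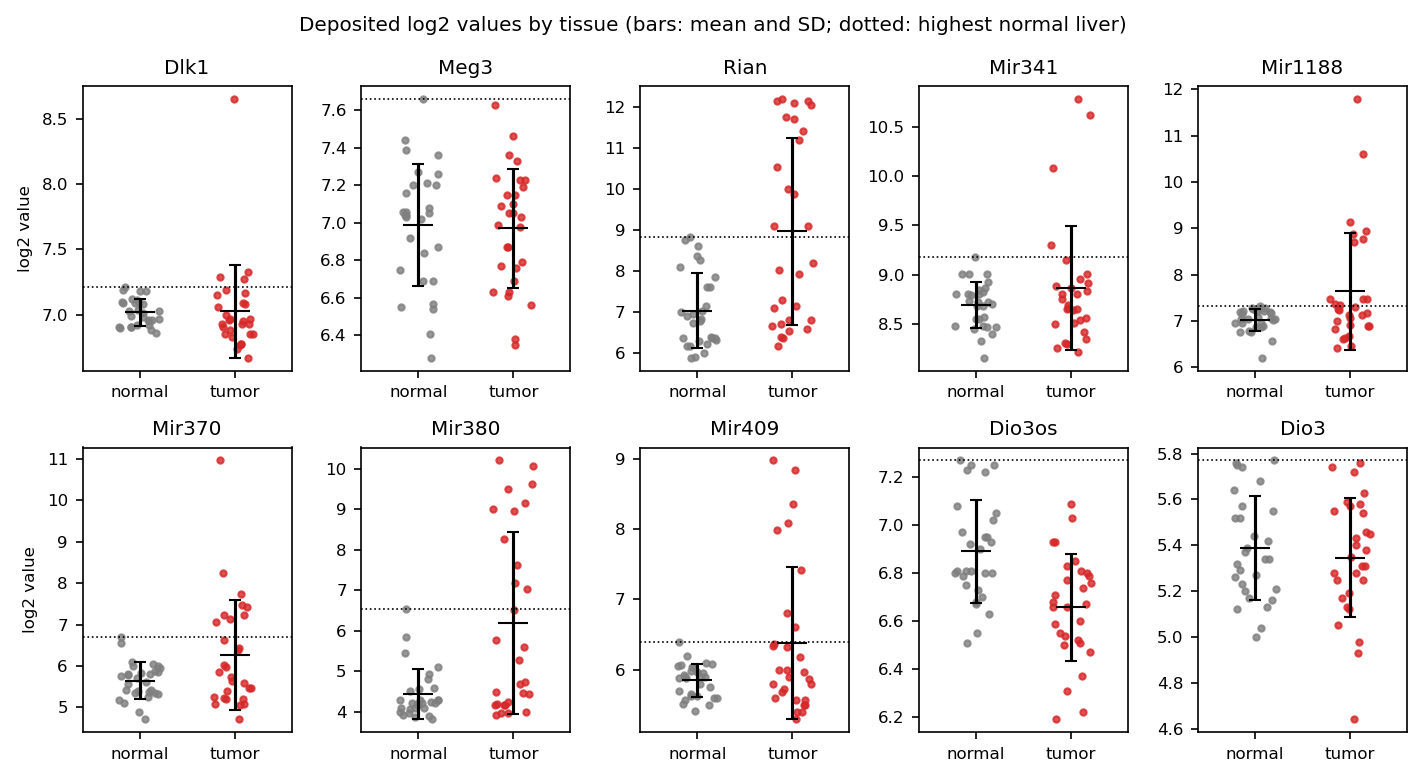
Deposited log2 values (vertical axis) of 10 locus members in 29 normal livers (gray) and 29 tumors (red), each dot an array, with the mean and SD as bars and the highest normal liver as a dotted line; each panel has its own axis. For Rian 14 tumors lie above the line, up to 12.20, while for Meg3, Dio3os and Dio3 no tumor does.

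The 6 members before Rian did not share in the change. Dlk1 ranged from 6.86 to 7.21 in normal liver (median 7.01) and from 6.67 to 8.65 in tumors (median 6.95), with a limma log2 change of -0.00 (SE 0.07, adjusted p = 0.969). Its tumors spread to both sides, with 4 above the normal range and 9 below it. Meg3 ranged from 6.28 to 7.66 in normal liver (median 7.04) and from 6.35 to 7.63 in tumors (median 7.03), and no tumor left the normal range on either side (limma change -0.02, SE 0.08, adjusted p = 0.894). By their numbers on the array, the probe sets of Meg3 and Mir299a fall beside that of Dio3os, a gene of the opposite strand. Those of all other members form a separate series. Which strand each probe set reads was not checked. Whether the flat values of Meg3 and Mir299a hold for their plus-strand transcripts was therefore not tested. Mir673, Mir337, Mir540 and Mir665, the miRNA genes between Meg3 and Rian, had changes of -0.19, -0.04, -0.09 and -0.05, with limma adjusted p from 0.0735 to 0.764. Mir673 fell where tumor 20 was left out (-0.23, limma adjusted p = 0.0126) and where arrays were weighted (-0.28, adjusted p = 0.000652).

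At the other end, Dio3 ranged from 5.00 to 5.77 in normal liver (median 5.34) and from 4.64 to 5.76 in tumors (median 5.35), with a limma change of -0.04 (SE 0.06, adjusted p = 0.668). Dio3os, read from the opposite strand beside Dio3, ranged from 6.51 to 7.27 in normal liver (median 6.81) and from 6.19 to 7.09 in tumors (median 6.67). It fell by 0.23 on the log2 scale (SE 0.05, limma adjusted p = 0.000605). No tumor exceeded the normal range for Dio3os, and 6 tumors lay below it.

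Each tumor was then set against the highest of the 29 normal samples, gene by gene. A member above that value is called raised in that tumor, which is a description with no test, since a tumor is a single array. Of the 1073 combinations of a member and a tumor, 276 (25.7%) were raised, against 6.87% of the combinations of all genes and tumors. Within the stretch from Rian to Mir409 the count was 269 of 841 (32.0%). Before Rian it was 7 of 174 (4.02%), and for Dio3 and Dio3os 0 of 58.

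The tumors fell into 11 with 12 to 27 members raised and 18 with 8 or fewer. Tumor 8 had 27 members raised where 7.39% of all genes were raised in that tumor. Tumors 15 and 29 had 26 each, with 7.19% and 7.42% of all genes raised, and tumors 4 and 6 had 25 each, with 4.89% and 4.42%. Tumor 7 had 23 members raised at 4.29% of all genes, and tumors 14 and 27 had 19 each at 4.36% and 2.53%. Tumor 19 had 17 at 10.9% of all genes, tumor 28 had 13 at 5.27% and tumor 13 had 12 at 8.47%. Every member raised in these 11 tumors belongs to the stretch from Rian to Mir409. In each of the 11, the share of members raised was larger than the share of all genes, the nearest pair being 32.4% of members against 8.47% of genes in tumor 13. This follows from how the 11 were grouped, since no tumor had more than 19.4% of all genes raised. Tumors 14, 15 and 28 are among the arrays whose sex markers go against the label, and without all such arrays 8 tumors had 10 or more members raised.

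In the other 18 tumors the counts were closer to the background. Tumor 20 had 8 members raised (21.6%) at 19.4% of all genes, the highest such share of any tumor. Tumor 16 had 7 at 7.2% of all genes, tumor 23 had 6 at 8.47%, tumor 21 had 5 at 5.72% and tumor 11 had 4 at 8.12%. Tumors 12 and 18 had 3 each at 5.37% and 9.03%, and tumors 2 and 10 had 2 each at 7.44% and 4.56%. Tumors 3, 17, 22 and 24 had 1 each at 6.22%, 6.21%, 5.87% and 0.676%. Tumors 1, 5, 9, 25 and 26 had none, where 0.784%, 12.5%, 15.7%, 2.91% and 5.9% of all genes were raised. Tumors 5 and 9 thus had a large share of all genes above the normal range and no member, while tumors 19 and 20 had a large share of all genes and 17 and 8 members.

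**Figure D2:**
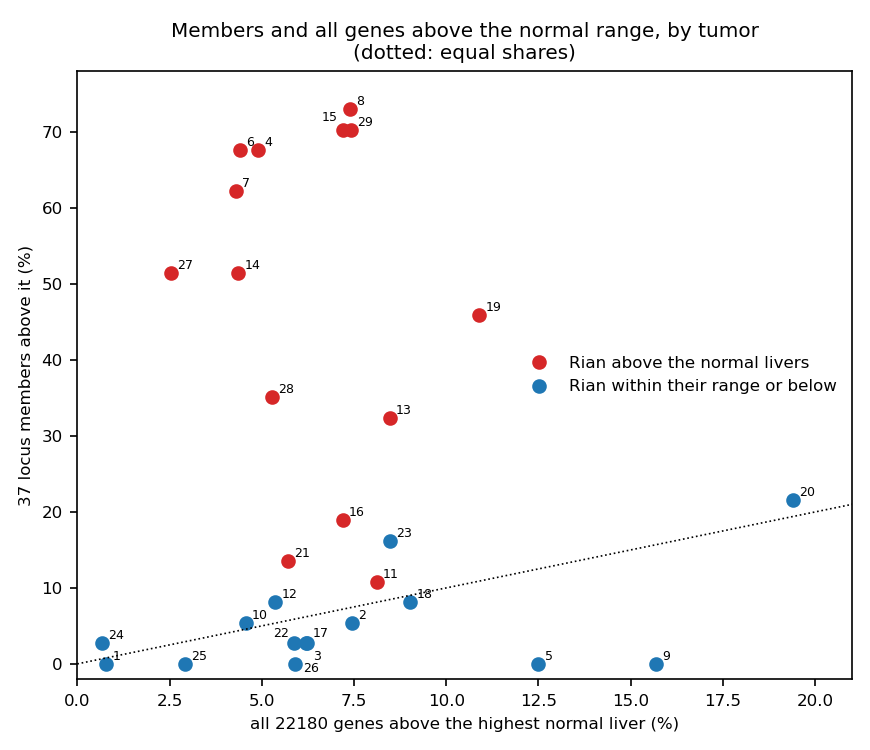
Share of the 37 locus members (vertical axis, %) and of all 22180 genes (horizontal axis, %) above the highest normal liver, one point per tumor with its number; red points are the 14 tumors with Rian above the normal livers and the dotted line marks equal shares. The 11 tumors with 12 or more members raised lie between 32.4% and 73.0% on the vertical axis, and tumor 20 lies near the line at 19.4% of all genes.

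The normal samples were set against one another in the same way, each against the other 28. Normal sample 27 exceeded the others in 11 members, all in the stretch, with at most 0.69 for Mir377 and with 4.81% of all genes. Normal sample 1 exceeded the others in 8 members, 5 of them in the stretch, with 10.9% of all genes. The remaining 27 exceeded them in 0 to 4 members each. Normal sample 27 therefore set the limit for several members, and without it 289 combinations were raised and 12 tumors had 10 or more members raised.

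**Figure D3:**
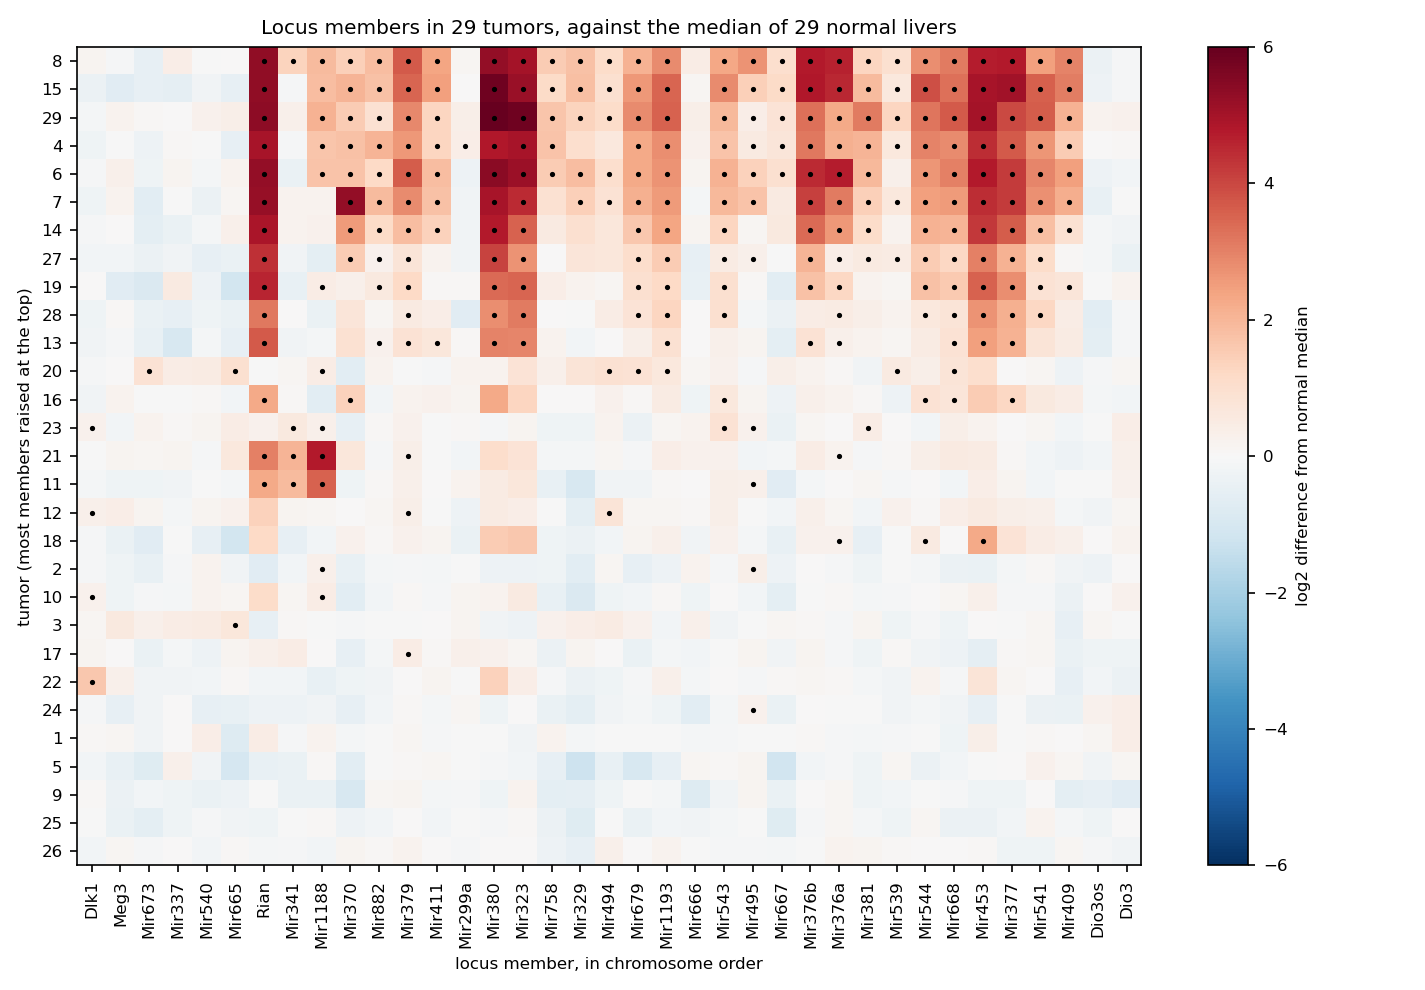
Log2 difference of each locus member (columns, in chromosome order) in each of 29 tumors (rows, most members raised at the top) from the median of 29 normal livers; red is higher, blue lower, and black dots mark values above the highest normal liver. The red block runs from Rian to Mir409 in the upper rows, and the columns of Dlk1 to Mir665, Mir299a, Mir666, Dio3os and Dio3 stay pale in those rows.

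Rian was raised in 14 tumors, the 11 with many members and tumors 11, 16 and 21. Its log2 values in the 11 were 12.20 in tumor 29, 12.16 in tumors 8 and 15, 12.11 in tumor 6, 12.05 in tumor 7, 11.76 in tumor 4, 11.72 in tumor 14, 11.41 in tumor 19, 11.21 in tumor 27 and 10.53 in tumor 13, and tumor 28 lay 1.17 above the highest normal sample. It was 9.88 in tumor 21, 9.11 in tumor 16 and 9.10 in tumor 11, against a highest normal value of 8.83. The highest value among the remaining 15 tumors was 8.20, in tumor 12. Tumors 16 and 11 thus lay just above the highest normal sample, and with the mean plus 3 SD of the normal samples as the limit 12 tumors had Rian raised.

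In all 11 tumors with many members, the first raised member was Rian. The last was Mir409 in tumors 4, 6, 7, 8, 14, 15, 19 and 29, Mir541 in tumors 27 and 28 and Mir377 in tumor 13. The raised members were not unbroken in any of them. The longest run of neighbouring raised members was 13, from Mir543 to Mir409, in tumors 4, 8, 15 and 29. It was 10 in tumor 7 (Mir376b to Mir409), 9 in tumor 27 (Mir376b to Mir541) and 3 in tumor 13 (Mir882 to Mir411). The breaks fell mostly at the same members: Mir666 was raised in none of the 11, Mir299a and Mir341 in 1 each, and Mir758, Mir329, Mir494 and Mir667 in 5 each. The normal medians of Mir666, Mir341, Mir758, Mir329 and Mir667 lay between 7.92 and 9.21. Those of the members raised in all 11 lay between 3.34 and 6.84, as did Mir299a (5.57) and Mir494 (6.63). Whether a high signal in normal liver hid a rise at the breaks was not tested.

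The members raised in all 11 were Rian, Mir379, Mir380, Mir323, Mir1193, Mir376a, Mir668, Mir453 and Mir377. The smallest amounts by which they exceeded the highest normal sample in these tumors were 1.17 for Rian, 0.89 for Mir377, 0.78 for Mir453 and 0.50 for Mir380, and 0.07 for Mir376a. Over all members of the stretch, the largest excess in these tumors was 4.46 for Mir376a, in tumor 6, followed by the largest of Mir370 (4.26), Mir376b (4.05) and Mir377 (3.85). The Mir376a amounts hold for the probe set used, while its other probe set was raised in only 3 tumors.

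The size of the rise differed between the 11 as well. Over the 29 members of the stretch, the median log2 difference from the normal median was 2.60 in tumor 15, 2.37 in tumor 8, 2.12 in tumor 7, 2.10 in tumor 29, 2.09 in tumor 6 and 2.02 in tumor 4. It was 1.39 in tumor 14 and then 0.71 in tumor 19, 0.69 in tumor 27, 0.45 in tumor 28 and 0.37 in tumor 13. Where a member had to exceed the highest normal sample by at least 1, 7 tumors had 10 or more members raised and the combinations numbered 146. Over the 6 members before Rian the same median lay between -0.51 and 0.14 in the 11 tumors.

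The first part of the stretch, inside Rian, separated the 14 tumors with Rian raised. Tumors 4, 6, 15 and 29 had both Mir1188 and Mir370 raised with Mir341 within the normal range, and 21 or 22 of the 24 members from Mir379 to Mir409. Tumor 8 had Mir341, Mir1188 and Mir370 raised, and 22 of the 24. Tumors 7, 14, 16 and 27 had Mir370 raised with Mir341 and Mir1188 within range, and 5 to 20 of the 24. Tumor 19 had Mir1188 alone of these genes and 14 of the 24. Tumors 13 and 28 had none of these genes raised, and 10 and 12 of the 24. Tumors 11 and 21 had Mir341 and Mir1188 raised, Mir370 within range, and only 1 and 2 of the 24.

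Tumors 11 and 21 had Rian, Mir341 and Mir1188 raised with few members of the hairpin cluster. Mir1188 was 10.61 in tumor 11 and 11.79 in tumor 21, the highest values of this gene in any array, where the next was 9.14 in tumor 29. They exceeded the highest normal sample by 3.29 and 4.47, or 9.8-fold and 22.2-fold. Mir341 was 10.62 and 10.78 there, again the highest values, followed by 10.08 in tumor 8. Mir370, 6.44 kb further along, was 5.46 and 6.38, within the normal range. Mir380, in the hairpin cluster, was 4.73 and 5.27, also within range. Normal sample 27 set the upper limit for Mir380, 6.53, and tumor 21 lay 1.04 above the normal median. Over the stretch as a whole the median difference from the normal median was 0.03 in tumor 11 and 0.23 in tumor 21, and the cluster members raised were Mir495 in tumor 11 and Mir379 and Mir376a in tumor 21.

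Tumor 7 showed another arrangement. Mir370 was 10.96 there, 4.26 above the highest normal sample (19.2-fold), and the next highest tumor for this gene was tumor 14 at 8.25. Mir1188, the hairpin before it, was 7.25 in tumor 7 and lay within the normal range, as did Mir341 at 8.96. Of the 24 members from Mir379 to Mir409, 20 were raised. Tumor 14 shared the order with smaller values: Mir1188 was 7.30, Mir370 was 8.25 and 16 of the 24 were raised. Tumor 27 had 6.46 for Mir1188, 7.23 for Mir370 and 16 of the 24.

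Tumors 4, 6, 8, 15 and 29 had 25 to 27 of the 29 stretch members raised, Mir666 in none of them, Mir341 only in tumor 8 and Mir299a only in tumor 4. Mir1188 lay between 8.70 and 9.14 and Mir370 between 7.14 and 7.73 in them. Both lie above every normal sample by the way these tumors were grouped. In tumors 13 and 28 Mir1188 was 6.92 and 6.64 and Mir370 was 6.62 and 6.43, all within the normal range, while Rian, Mir380 and Mir453 were raised. Tumor 16 had 7 members raised, by at most 0.35, for Mir370.

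**Figure D4:**
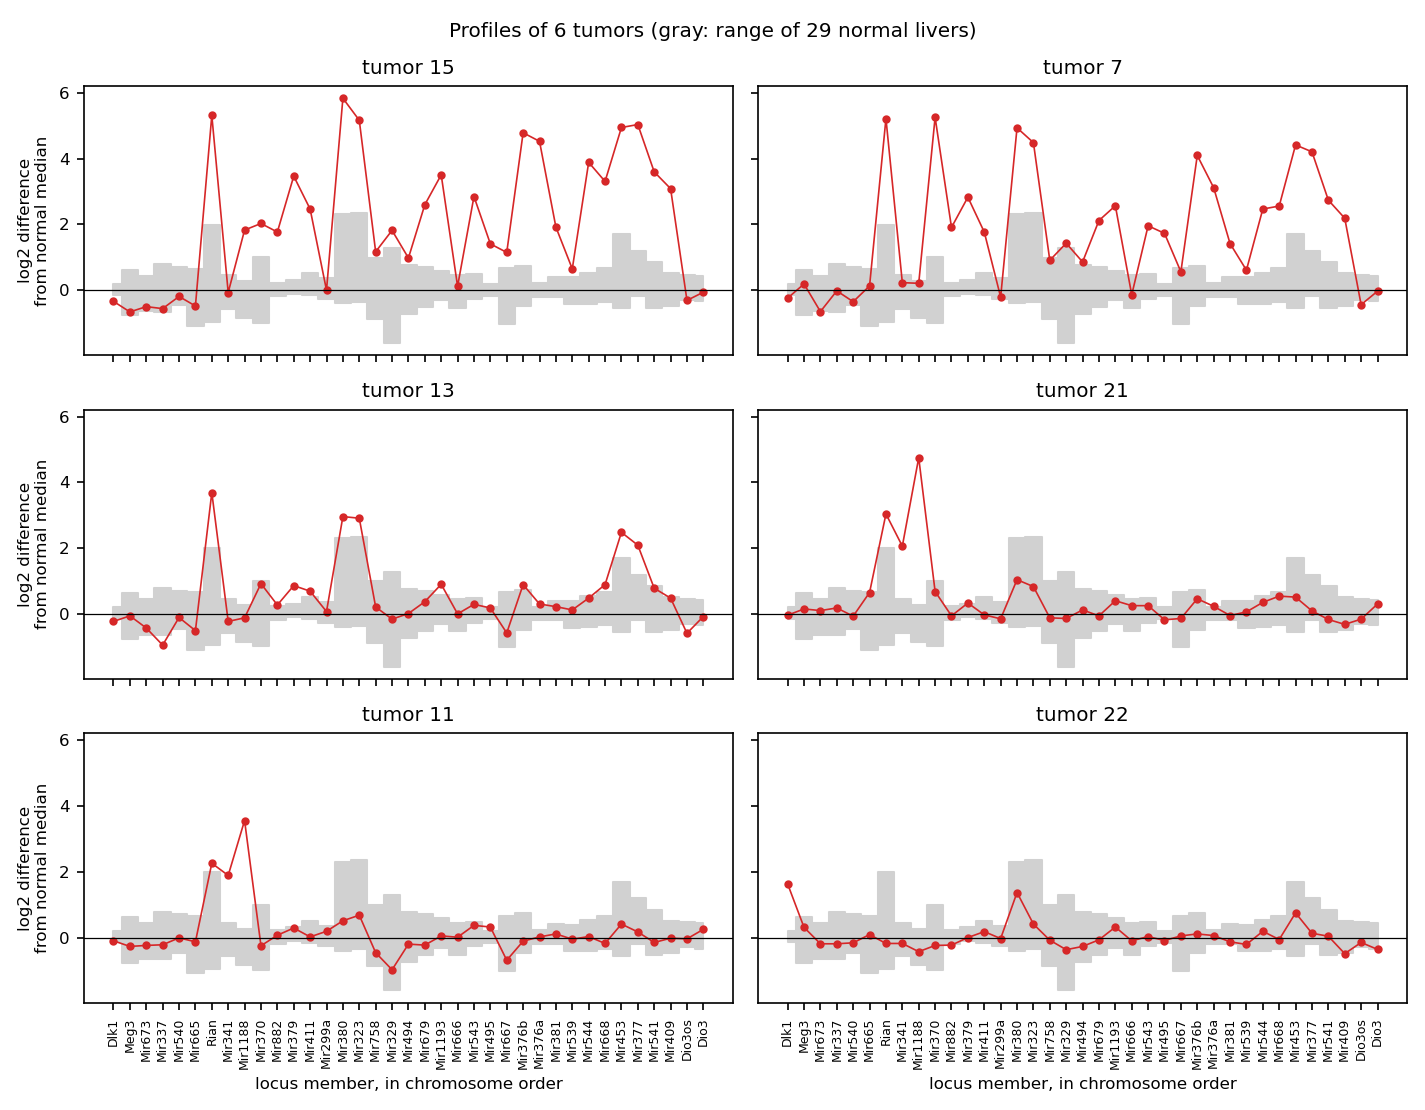
Log2 difference from the median of 29 normal livers (vertical axis) for the 37 members in chromosome order (horizontal axis) in 6 tumors, with the range of the normal livers in gray; lines only join neighbouring members. Tumor 15 is high at 26 of the 29 members from Rian to Mir409, Mir341, Mir299a and Mir666 being within the gray range, tumor 7 from Rian and Mir370 onward but not at Mir341 and Mir1188, tumor 13 at a few members, tumors 21 and 11 at Rian, Mir341 and Mir1188, and tumor 22 at Dlk1.

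Dlk1 and Rian were not both above the highest normal sample in any tumor. Dlk1 was raised in tumors 10, 12, 22 and 23, with values of 7.27, 7.33, 8.65 and 7.29 against a highest normal value of 7.21. The excess was 1.43 in tumor 22 and at most 0.11 in the others. Rian in these 4 tumors was 7.94, 8.20, 6.66 and 7.11, within the normal range in each. Of these, tumors 10 and 12 could be set against the liver of the same animal. There Rian was higher in the tumor by 1.03 and 2.33, and Dlk1 by 0.18 and 0.15. Tumor 23 had 5 members of the stretch raised beside Dlk1 (Mir341, Mir1188, Mir543, Mir495 and Mir381), tumor 12 had Mir379 and Mir494, and tumor 10 had Mir1188. Tumor 22 had no other member raised, and tumor 26, from the same animal, had none at all, with a Dlk1 value of 6.85. Dlk1 was below the lowest normal sample in 9 tumors, 7 of which had Rian raised (4, 7, 13, 15, 16, 27 and 28). In these 7 tumors 3.33% to 7.69% of all genes lay below the lowest normal sample. Whether Dlk1 and Rian move in opposite directions was not tested. Dio3os was below its lowest normal sample in 6 tumors, 5 of which had Rian raised (7, 8, 13, 15 and 28), where 5.23% to 7.69% of all genes were below. These distances were small: the lowest Dlk1 value was 6.67 in tumor 15 against 6.86 in the lowest normal sample, and the lowest Dio3os value 6.19 in tumor 28 against 6.51.

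How the members covaried was examined within the 14 tumors with Rian raised and within the other 15. The cut between them is the highest normal sample. Rian values ran on across this cut, from 8.20 in tumor 12 to 9.10 in tumor 11. Rian was set against 7 members, which with both groups makes 14 relations. Among the 14 tumors Rian and Mir453 had a Pearson r of 0.95 and a Spearman rho of 0.97, with permutation p of 1e-05 for both, the smallest that 100000 permutations give (adjusted p 4.67e-05 and 7e-05). Rian and Mir380 had 0.94 and 0.98 (permutation p = 1e-05 for both, adjusted 4.67e-05 and 7e-05), and Rian and Mir377 had 0.92 and 0.92 (permutation p = 1e-05 and 2e-05, adjusted 4.67e-05 and 9.33e-05). For Mir409, at the end, r was 0.81 and rho 0.91 (permutation p = 0.00092 and 6e-05, adjusted 0.00322 and 0.00021). Without tumors 11 and 16, the farthest from the median of Rian, r was 0.94, 0.95, 0.92 and 0.85 for Mir453, Mir380, Mir377 and Mir409.

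The members inside Rian did not follow its level in this way. Mir370 had an r of 0.56 and a rho of 0.63 (permutation p = 0.031 and 0.0172, adjusted 0.0621 and 0.0402), Mir1188 had -0.07 and 0.27 (permutation p = 0.821 and 0.341, adjusted 0.821 and 0.434), and Mir341 had -0.41 and -0.11 (permutation p = 0.15 and 0.718, adjusted 0.233 and 0.718). Without tumors 11 and 16 these r were 0.51, -0.02 and -0.28. Among the 15 tumors without raised Rian, r was 0.64 for Mir377 (rho 0.48), 0.58 for Mir453 (rho 0.56) and 0.51 for Mir380 (rho 0.71), with permutation p of 0.0102, 0.0231 and 0.0438 (rho 0.0723, 0.0334 and 0.00405) and adjusted values of 0.0286, 0.054 and 0.0767 (rho 0.127, 0.0669 and 0.0113). Without tumors 12 and 18 of these 15, the farthest from their median of Rian, those r were 0.13, 0.29 and 0.20. The rho values were not computed without them, so whether the rank relations, that of Mir380 among them, rest on these tumors was not tested. For Mir370, Mir409, Mir1188 and Mir341 r was 0.32, 0.31, 0.21 and 0.18 there (rho 0.19, 0.28, 0.25 and 0.32), with permutation p of 0.239, 0.263, 0.461 and 0.509 (rho 0.507, 0.308, 0.377 and 0.236) and none below an adjusted p of 0.334.

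In the 18 animals that gave both tissues, each tumor could be set against its own liver. Rian was higher in the tumor in 16 of 18, with differences from -0.42 to 5.98 and a median of 2.20. The differences fell apart into 8 of 3.44 or more, in the tumors 15, 7, 6, 19, 8, 13, 4 and 14, and 10 of 2.33 or less. In these 8 animals the normal liver had Rian values from 6.16 to 8.28, inside the range of the other normal samples, while the tumors had 10.53 to 12.16. Of the 29 members of the stretch, 23 to 29 were higher in each of the 8 tumors than in the same animal's liver. Of the 37 members, 19 were higher in at least 12 of the 18 pairs. Counts of this kind, here and in the next paragraph, were not made over all genes, so no background share stands beside them.

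Mir1188 was higher in the tumor in 14 of 18 pairs (median difference 0.28, largest 3.86 in tumor 11) and Mir370 in 10 of 18 (median 0.35, largest 5.34 in tumor 7). Mir380 was higher in 14 of 18 pairs, with differences from -1.39 to 5.97. Dlk1 was higher in 6 of 18, from -0.34 to 0.19, Meg3 in 8 of 18 and Dio3 in 10 of 18. Dio3os was higher in 6 of 18, with a median difference of -0.30. Tumor 16 had 27 of 29 stretch members above its own liver by a median of 0.65, although only 7 members exceeded all 29 normal samples. In this pair 34 members of the whole locus were higher in the tumor. Before Rian, Meg3, Mir673, Mir337, Mir540 and Mir665 were higher by 0.35 to 0.95, and Dlk1 differed by -0.14. The array median was 6.80 in normal sample 16 and 6.96 in tumor 16. Whether the rise in this pair was particular to the stretch was not tested.

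**Figure D5:**
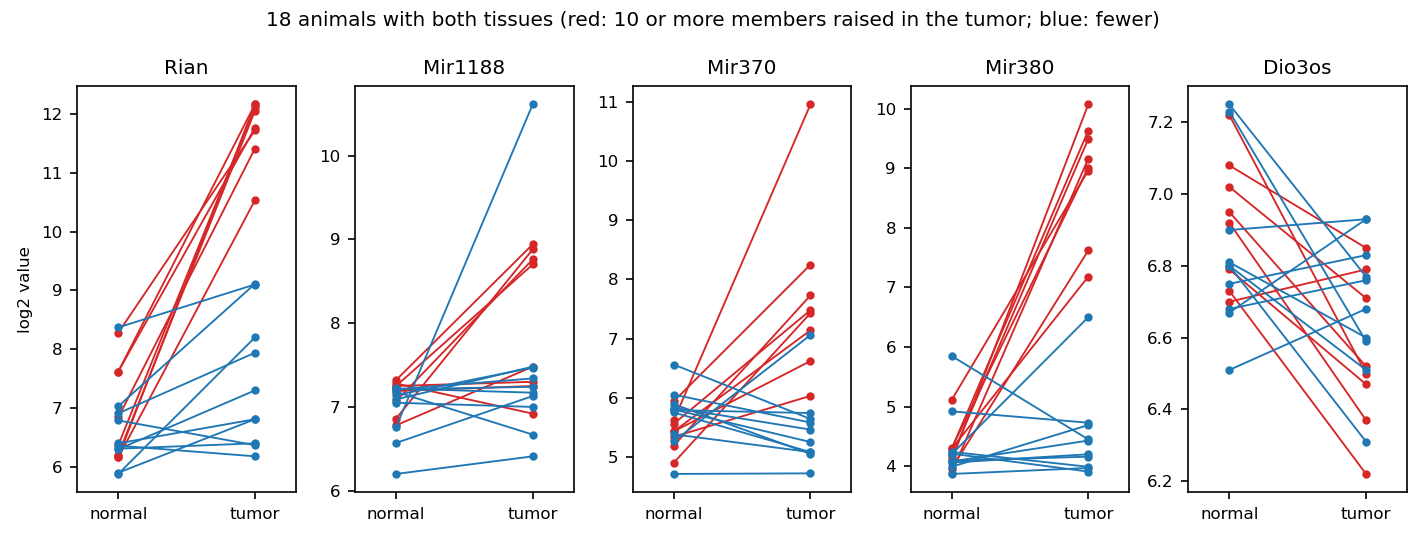
Log2 values of 5 members in the normal liver and the tumor of 18 animals, one line per animal, red where 10 or more members were raised in the tumor and blue where fewer; each panel has its own axis. The 8 red lines rise for Rian by 3.44 to 5.98, and the steepest line for Mir1188 is the blue one of tumor 11.

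Rian was raised in 11 of 17 tumors labelled male and in 3 of 11 labelled female, and 10 or more members were raised in 9 and 2 of them. Rian ranged from 6.18 to 12.20 in male-labelled tumors (median 10.53) and from 6.37 to 12.11 in female-labelled ones (median 7.94), so the groups overlapped nearly throughout. The difference, male minus female, was 1.64 on the log2 scale (SE 0.62, 95% interval 0.43 to 2.85) and did not pass the test over all genes (limma adjusted p = 0.425). By the same test 0 members were called by limma, against 0.0225% of all genes, with 20 members and 9.96% of all genes at an unadjusted p under 0.05. For the interaction of tissue and labelled sex limma called 0 members and 0% of all genes, with 3 members and 4.53% of all genes at an unadjusted p under 0.05 and a difference of 0.87 for Rian (SE 0.84, 95% interval -0.77 to 2.52). Without the arrays that go against their labels the counts were 9 of 15 and 2 of 9 tumors, and the difference 1.34 (95% interval 0.04 to 2.64), with 0 members called by limma and 3 members at an unadjusted p under 0.05 for male minus female, where 8.7% of all genes were.

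Among the marks in the titles, only +/- went with raised Rian in every tumor that carried it. All 5 tumors titled +/-, numbers 4, 7, 13, 15 and 29, had Rian raised and 12 to 26 members raised, with Rian from 10.53 to 12.20. All 5 were labelled male. Of the 5 tumors titled -/-, tumors 27 and 28 had Rian raised (range 6.53 to 11.21, median 7.11), and of the 19 without a mark 7 did (range 6.18 to 12.16, median 7.94). Marks differed within 2 animals as read from the titles: tumor 19, with no mark and Rian raised, came with a normal sample titled -/- (normal sample 17), and tumors 22 and 26 were titled -/- and without a mark. The 5 normal samples titled +/- had Rian between 5.99 and 7.62 and none exceeded the other normal samples in it. This division was noticed after the values were seen, was not tested, and rests on labels that name no gene. By a looser reading of the titles tumors 4 and 29 come from a single animal.

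The genes on both sides of the locus were read in the same way, where of all genes 17.9% rose, 14.3% fell and 6.87% of combinations were raised. Of 15 upstream neighbours, from Bcl11b to Begain, 2 rose and 3 fell, and 4.6% of their combinations with a tumor were raised. Wars, a tryptophan tRNA ligase, rose by 0.34, and Ccnk, a cyclin of transcription kinases, by 0.23. Slc25a47, a mitochondrial carrier of liver, fell by 1.24, Cyp46a1, a cholesterol hydroxylase, by 0.73 and Degs2 by 0.19 on the log2 scale. Of 10 measured downstream neighbours, from Ppp2r5c to Rcor1, 3 rose and 2 fell, and 11.4% of combinations were raised. Hsp90aa1, a chaperone, rose by 0.41, Rcor1, a corepressor subunit, by 0.32 and Ankrd9 by 0.21, while Tecpr2 and Wdr20 fell by 0.18 and 0.17. At most 4 genes of either flank were raised in any tumor. In the 14 tumors with Rian raised, 4.29% of upstream and 10.7% of downstream combinations were raised, against 61.1% in the stretch from Rian to Mir409. The last share includes Rian itself, by which these tumors were chosen.

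Among 18 genes known to keep or read imprints, 7 rose and none fell, where 17.9% of all genes rose and 14.3% fell. Uhrf1, which brings the maintenance methyltransferase to replicated DNA, rose by 0.61, Ezh2, the catalytic subunit of the Polycomb complex PRC2, by 0.53, Zfp57, a zinc finger protein that protects imprints, by 0.51 and Dnmt1, the maintenance methyltransferase itself, by 0.37. The other 3 that rose did so by 0.26 to 0.32. The 11 others did not pass the test, and the median change of the 18 was 0.08. In the 14 tumors with Rian raised, 13.9% of combinations for these genes were raised, against 13.8% over all 29 tumors and 6.87% for all genes. Of 13 measured genes that make or edit miRNAs, 4 rose and 1 fell. Ago2, the slicing Argonaute, rose by 0.71, Tarbp2, a partner of Dicer, by 0.47, Drosha, which cuts hairpins from the primary transcript, by 0.32 and Xpo5, which exports them, by 0.26, and Adarb1, an editing enzyme, fell by 0.40.

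Markers of other tissues and cell types were read from the same fit. Of 4 markers of adrenal gland and muscle, which express the locus in adults, 0 rose and 2 fell, and their summed log2 value ranged from 25.21 to 27.48 in normal liver and from 25.11 to 26.98 in tumors. Of 4 measured liver cancer and fetal liver markers 3 rose, and their sum ranged from 27.30 to 36.57 in normal liver and from 28.71 to 41.78 in tumors. Of 6 T and NK cell markers 1 rose, with sums from 39.90 to 46.44 in normal liver and from 39.39 to 57.84 in tumors. Of 7 macrophage markers 1 rose and 4 fell (58.33 to 76.05 and 53.20 to 72.56). Of 8 endothelial markers 2 rose and 2 fell (70.62 to 80.95 and 63.10 to 82.33). Of 8 stellate cell and fibroblast markers 2 rose and 4 fell (68.00 to 84.20 and 61.98 to 82.97). Of 4 measured cholangiocyte markers 2 fell (27.02 to 35.72 and 26.15 to 30.33), and of 2 measured B cell markers neither was called. Their part in the values of the locus was not tested.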

How the data were processed

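The deposited values are log2 signals of probe sets on a whole-transcript mouse array, 1 value per probe set and array. Per the submitters' processing notes, the authors made these log2 values with Affymetrix Expression Console. The version, the algorithm and the build remain unknown, being not given in the sources used here. Of 41345 probe sets 23521 carried 1 gene symbol in the platform annotation, 1814 several and 16010 none. Probe sets with 1 symbol were kept, the brightest per symbol by its mean over all 58 arrays, tumors included, giving 22180 genes. No filter and no pseudocount was applied. The number of arrays limits the precision.

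Tumor and normal liver were compared with limma 3.58.1 in R 4.3.3 on all genes, the animal being a random block by duplicateCorrelation (correlation 0.145), with eBayes trend and Benjamini-Hochberg adjustment over all genes. Pairs come from animal names in the titles: 18 animals gave both tissues. Nothing says that other arrays come from unrelated litters. Labelled sex was fitted on the arrays that carry a gender label. Each tumor was also set against the highest normal sample, without a test. Permutation tests were two-sided. The fit was tested on simulated data. The members and lists were chosen with earlier results of these data known. Named in full were the 5 genes that are not miRNA genes, Mir341, Mir1188, Mir370, members at an end of a raised stretch, and miRNA members raised in the most tumors, ties going to the larger change after the values were seen; the rest are given by ranges and counts. From other lists, members called were named, largest first, at most 4 each way. Alternatives covered scaling, blocks, probe sets, dim genes, array weights and arrays left out. Red cell markers, Dgcr8 and Traf3 had no gene with 1 symbol and were not analysed here.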

Additional observations from a re-analysis of the deposited data

Results flagged for a closer look

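Probe sets outside the 37 members were looked at because RefSeq's gene order puts their genes in the same interval. Between Rian and Mir409, 3 probe sets that carry several gene symbols had 32 of 87 combinations with a tumor above the highest normal liver (36.8%), against 6.87% for all genes. In the same stretch, 15 probe sets with a single symbol that is not among the members had 148 of 435 (34.0%). All 15 were above the normal range in 7 to 11 tumors each, and every one of those combinations fell in the tumors with Rian raised. The largest excess among them was 5.15 on the log2 scale. Both sets stand out as signal in data that the comparisons above do not use, at a share close to the 32.0% of the members themselves. Before Rian the shares were 7.88% for 7 probe sets with several symbols and 1.15% for 3 with 1 symbol. Of those 7, 1 was above the normal range in 8 tumors. At least 1 of the 7 was so in 9 tumors, with a largest excess of 0.98.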

How the results depend on the processing

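Members called higher numbered 23, but 0 where only animals without a pair were fitted, and 2 where only genes above the median level were tested, a setting that tested 9 of the 37 members. The 1 member that fell became 0 in both of those settings, 3 with array weights and 2 without tumor 20; without tumor 9 or tumor 22 it was 1. The block of 18 pairs with the animal as a fixed replicate block left 21 members higher. Flanking genes called in either direction numbered 10, but 6 with that block, 5 in the animals without a pair and 16 with array weights, and imprint regulators called numbered 7, but 3 in the animals without a pair and 11 with array weights. Whether these were the same genes was not counted. The 276 raised combinations became 146, and the 11 tumors with 10 or more members became 7, where an excess of at least 1 was required. For single members 431 of the values under the alternatives kept direction and side of the threshold, 36 lost the call, 24 of them in the animals without a pair, 3 gained one and 20 changed sign, all in members near 0 that no such setting called: Dlk1 was 0.01 (quantile normalization, no block, looser reading of animals), 0.14 (animals without a pair) and 0.02 (without arrays against the gender label), Meg3 0.01 (18 pairs), Mir299a 0.03 (quantile normalization), 0.02 (without arrays against the label, and mean of all probe sets) and 0.00 (18 pairs), Mir329 -0.14 (animals without a pair), Mir666 0.00 (without tumor 9, -0.04 without tumor 20) and Mir667 -0.00 (centred arrays), -0.07 (quantile normalization), -0.01 (no block, looser reading, without tumor 20), -0.21 (animals without a pair), -0.06 (without arrays against the label) and -0.02 (array weights). The cause was not tested. Array weights also moved the calls over all genes, from 3964 higher and 3166 lower to 5345 and 6169. Where genes carried 2 probe sets, Mir380, Mir376a and Mir409 were raised by the second in 1, 3 and 1 tumors, against 11, 14 and 8 by the brightest, and Mir299a in 2 against 1.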
